A study of Mus musculus with 6 samples.

Results

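The E2F transcription factors and the retinoblastoma family were followed through sorted mouse regulatory T cells (Treg) on 6 expression arrays. The genes were chosen by name: E2f1, E2f3, E2f4, E2f6, E2f8, their dimerization partner Tfdp1, and the pocket proteins Rb1, Rbl1 and Rbl2. Every probe set annotated to a single one of these symbols was taken, which gave 12 probe sets for 9 genes, of 22626 probe sets tested and 12393 named genes. All samples were CD4+YFP+ cells sorted from mice of C57BL/6 background. The 3 control samples have B6_WT titles and the genotype Foxp3cre, in which Cre recombinase is made in cells that express Foxp3, the transcription factor that defines Treg. The other 3 samples have USP7 titles. The series text gives them as fl-Usp7/Foxp3cre, a floxed Usp7 allele with the same Cre, but their genotype field reads fl-HDAC11/Foxp3cre, so they are called USP7-titled here. Going by these labels, both groups carried Foxp3cre. The Foxp3 probe set averaged 12.98 in controls and 7.0 in USP7-titled arrays, and whether the groups carried the same Foxp3 allele was not tested. Per the series text the samples of a group are independent; the text does not say that each is 1 animal, so a p-value here speaks only of the spread among these samples, which may be technical. Age is not given in the sources used here.

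E2F proteins bind the promoters of genes for DNA replication and mitosis as dimers with a DP partner. E2f1 and E2f3 are best known as activators, E2f4 works mainly with pocket proteins as a repressor, and E2f6 and E2f8 repress without pocket proteins. Rb1, and with it p107 (Rbl1) and p130 (Rbl2), binds E2Fs in resting cells and lets go when cyclin-dependent kinases (CDKs) phosphorylate it. In resting cells Rbl2 or Rbl1, E2f4 or E2f5, a DP protein and the MuvB proteins form the DREAM complex. DREAM holds down genes of S phase through E2F elements and genes of mitosis through a second element, the cell cycle genes homology region (CHR). E2f1, E2f8 and Rbl1 are themselves E2F targets, as textbook accounts of the cell cycle describe.

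The promoter sequences of the members are given to show where the letters of E2F and CHR elements occur in them. The RefSeq promoter table, on build GRCm38.p6, held 7 of the 9 members, with 250 bases before and 50 bases after the annotated start. Each window was searched on both strands for 3 motifs. The E2F element was TTTCCCGC, TTTGGCGC, TTTCGCGC or TTTGCCGC. A short E2F element was TTCCCGC or TTGGCGC, letters that lie inside TTTCCCGC and TTTGGCGC, so the short form also counts those sites. The CHR was TTTGAA or TTCGAA. Matches are in capitals, on the gene's own strand, so a motif of the other strand is read as its reverse complement (GCGGGAAA for TTTCCCGC). The upstream parts of E2f3, Rbl1 and Rbl2 are shown because their values are set side by side below. For E2f8, the member that changed most, and Tfdp1, stretches of 30 bases around the matches are given.
E2f3, chr13:29986064-29986313, minus strand: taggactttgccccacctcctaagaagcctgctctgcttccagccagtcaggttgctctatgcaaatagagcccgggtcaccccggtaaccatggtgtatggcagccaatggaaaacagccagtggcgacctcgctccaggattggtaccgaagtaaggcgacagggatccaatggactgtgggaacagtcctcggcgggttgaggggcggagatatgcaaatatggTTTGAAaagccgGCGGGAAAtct
Rbl1, chr2:157204535-157204784, minus strand: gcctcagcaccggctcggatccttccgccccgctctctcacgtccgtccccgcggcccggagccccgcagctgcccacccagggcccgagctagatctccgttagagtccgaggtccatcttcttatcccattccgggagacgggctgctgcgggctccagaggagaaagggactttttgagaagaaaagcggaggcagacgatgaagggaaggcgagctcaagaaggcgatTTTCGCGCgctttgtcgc
Rbl2, chr8:91069807-91070056, plus strand: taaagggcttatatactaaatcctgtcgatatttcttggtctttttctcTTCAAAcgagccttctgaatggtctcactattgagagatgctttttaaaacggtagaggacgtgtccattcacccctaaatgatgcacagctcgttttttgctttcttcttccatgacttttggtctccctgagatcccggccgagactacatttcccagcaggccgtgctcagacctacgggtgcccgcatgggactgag
E2f8, chr7:48881689-48881718, minus strand: agaggcgcggaTTGGCGCgcggggccccgg
E2f8, chr7:48881598-48881627, minus strand: agcgggttaatTTCAAAtcgggggctggac
Tfdp1, chr8:13338697-13338726, plus strand: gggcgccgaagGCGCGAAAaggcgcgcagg

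The E2F element was found in the windows of 3 of 7 members (E2f3, Rbl1 and Tfdp1), against 2.6% of the 27025 genes in the table. In E2f3 it began 11 bases before the start, in Rbl1 18 bases before it and in Tfdp1 43 bases before it. The short element was found in 2 of 7 members (E2f3 and E2f8), against 7.79% of genes. The CHR was found in 3 of 7 (E2f3, E2f8 and Rbl2), against 21.7% of genes. The windows of E2f1 and E2f6 held none of these letters. Some windows lay inside the annotated gene, which begins further upstream, by 466 bases for E2f1, 477 for E2f8, 56 for E2f6 and 26 for Tfdp1, so the E2f8 matches stand within its gene. A match describes letters in this window and not a bound site.

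Across the whole array, 3673 probe sets rose and 3865 fell at an adjusted p under 0.05 (limma, Benjamini-Hochberg), with changes taken as USP7-titled minus control, so 48.7% of the calls were rises. Scaled to 18 spike-in control probe sets of the array (bioB, bioC, bioD and cre), 5157 rose and 1938 fell (72.7% rises). This scaling moved the median change of all probe sets from -0.06 to 0.10 on the log2 scale. It follows the signal of those controls alone and is no measure of RNA per cell. Usp7 fell by 1.01 on its brighter probe set (adjusted p 2.04e-06), with every control array between 11.61 and 11.73 and every USP7-titled array between 10.54 and 10.76. The brighter probe set of Hdac11 fell by 0.58 (adjusted p 0.019), and the dimmer did not pass (adjusted p 0.354). Of the Treg markers, Foxp3 averaged 12.98 in controls and 7.0 in USP7-titled arrays. The others stayed bright: Il2ra 12.85 and 12.68, Tnfrsf18 12.59 and 12.47, Ctla4 12.53 and 12.17, Ikzf2 11.05 and 10.84, and Cd4 12.82 and 12.83. All of these but Cd4 were still called lower, with limma adjusted p from 0.000339 (Ctla4) to 0.0366 (Ikzf2). The brightest probe set of Xist, an RNA of female cells, averaged 12.50 in controls and 5.30 in USP7-titled arrays, and that of Eif2s3y, a Y-linked gene, 4.50 and 10.15. The controls thus read as female and the USP7-titled samples as male, and the effects of sex and of genotype cannot be told apart.

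Of the 9 genes, 7 rose in the USP7-titled arrays, while E2f4 and the brighter probe set of Rbl2 did not pass. Of the 12 probe sets, 10 rose and 0 fell; 2 did not pass. Over the whole array 16.2% of probe sets rose and 17.1% fell. Of all genes, by brightest probe set as for the 9 members, 16.9% rose and 15.6% fell. E2f5, a family member outside these 9 genes, fell and is described below. The median change of the 12 probe sets was 0.58 on the log2 scale, against -0.06 over all probe sets. In all 12 the USP7-titled arrays lay above every control array, which was so for 20.1% of all probe sets. With 3 against 3 arrays a two-sided exact permutation test cannot give less than p = 0.1, and each of the 12 gave that value. In bulk samples more cells that carry a transcript and more of that RNA per cell cannot be told apart.

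**Figure D1:**
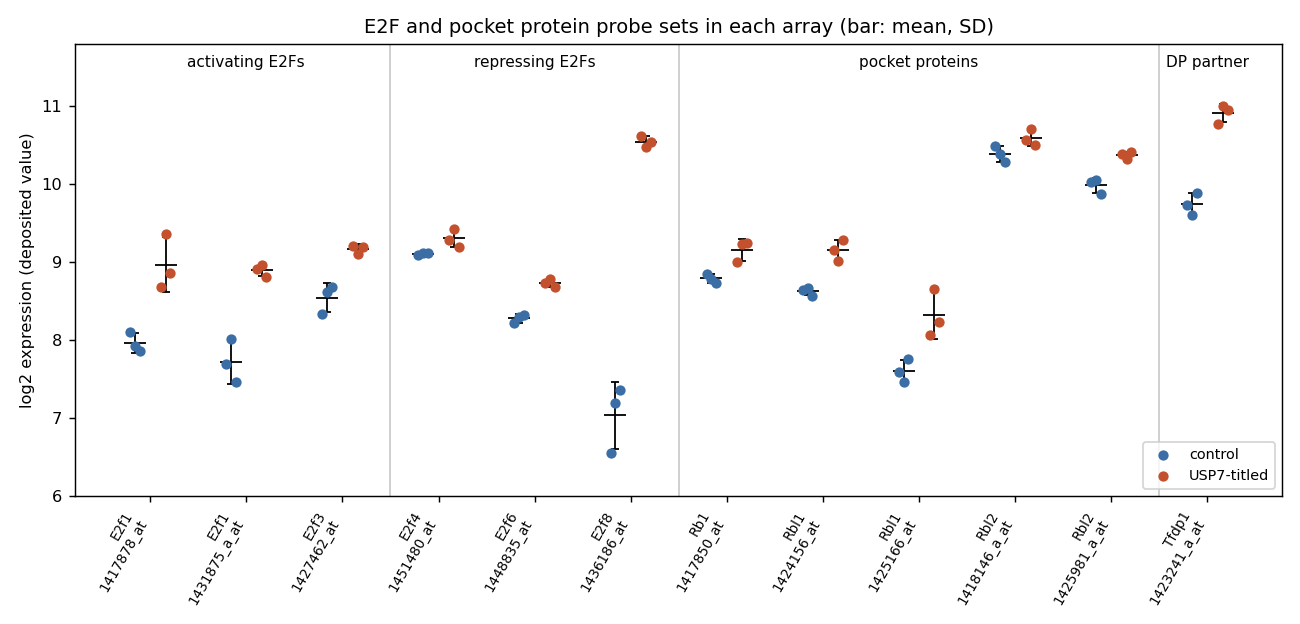
Deposited log2 expression (vertical axis) of the 12 probe sets of the 9 genes (horizontal axis, by role); each point is 1 of 3 control (blue) or 3 USP7-titled (orange) arrays, with the group mean and SD as bars. The orange points lie above the blue ones for every probe set, with the widest gap in E2f8.

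Among the activating E2Fs, E2f1 drives S phase entry and can also promote apoptosis. On the log2 scale its probe set 1417878_at read 8.11, 7.93 and 7.86 in the 3 controls, against 8.68, 9.36 and 8.86 in the USP7-titled group. The second, 1431875_a_at, read 7.69, 8.01 and 7.46 against 8.92, 8.97 and 8.81. On both the groups were apart; on the first, USP7-titled 2 was the highest and the 2 others lay closer to the controls. The change was 1.0 (SE 0.17, n = 3 per group), 2.0-fold, with adjusted p 0.00099 for the first probe set. For the second it was 1.18 (SE 0.15), 2.27-fold, with adjusted p 0.000128. E2f3, a second activator whose upstream sequence holds the E2F element shown above, also rose. It read 8.34, 8.62 and 8.68 in controls against 9.21, 9.10 and 9.20. The USP7-titled arrays lay close together (SD 0.06), and the controls were wider (SD 0.18), with control 1 the lowest. E2f3 rose by 0.63 (SE 0.12), 1.54-fold, with adjusted p 0.00196.

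Tfdp1 encodes DP1, which most E2Fs need to bind DNA well. It read 9.74, 9.60 and 9.89 in controls against 10.78, 11.01 and 10.95. All USP7-titled arrays lay well above the highest control. The change was 1.17 (SE 0.10; 95% confidence interval 0.96 to 1.38), 2.25-fold, with adjusted p 6.93e-06. The SDs within the groups were 0.15 and 0.12.

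Among the repressing E2Fs the changes ranged widely. E2f8, an atypical E2F that binds DNA without DP and holds back E2F targets late in S phase, changed most of the 9 genes. It read 6.55, 7.20 and 7.36 in controls against 10.62, 10.48 and 10.54. Control 1 was the lowest, and the USP7-titled arrays were nearly level. The control mean ranked at percentile 36.9 of the array, so it was a dim probe set in controls. Its change was 3.51 (SE 0.18; interval 3.11 to 3.92), 11.4-fold, with adjusted p 3.06e-07. E2f6, which recruits Polycomb proteins, read 8.22, 8.30 and 8.32 in controls against 8.74, 8.78 and 8.68. It rose by 0.46 (SE 0.10), 1.37-fold, with adjusted p 0.00636. E2f4, the main E2F of DREAM, read 9.09, 9.12 and 9.12 against 9.29, 9.43 and 9.20. The groups did not overlap, though USP7-titled 3 lay close to the controls, and the difference of 0.20 (SE 0.10; interval -0.02 to 0.41) did not pass, with adjusted p 0.157. Scaled to the spike-in controls the difference was 0.36 with adjusted p 0.0339.

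The changes of the 5 pocket protein probe sets ran from 0.21 to 0.71. Rb1, the retinoblastoma protein, read 8.85, 8.79 and 8.74 in controls against 9.0, 9.24 and 9.25, and USP7-titled 1 lay nearest to the controls. It rose by 0.37 (SE 0.11; interval 0.13 to 0.61), 1.29-fold, with adjusted p 0.0229. That call was lost when control 2 (adjusted p 0.0643), control 3 (0.0661), USP7-titled 2 (0.0754) or USP7-titled 3 (0.0743) was left out. Rbl1 encodes p107, which is made as cells cycle, and its upstream sequence holds an E2F element 18 bases before the start. Its brighter probe set read 8.65, 8.67 and 8.57 against 9.16, 9.02 and 9.29, a change of 0.53 (SE 0.11) with adjusted p 0.00347. The dimmer read 7.59, 7.47 and 7.76 against 8.07, 8.66 and 8.24, a change of 0.71 (SE 0.16) with adjusted p 0.00612. Both Rbl1 probe sets thus placed every USP7-titled array above the controls.

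Rbl2 encodes p130, the pocket protein of resting cells, and its upstream part holds a CHR match 201 bases before the start. The brighter probe set, 1418146_a_at, read 10.49, 10.39 and 10.28 in controls against 10.57, 10.71 and 10.51, so that the highest control nearly reached the lowest USP7-titled array. Its difference of 0.21 (SE 0.08; interval 0.03 to 0.39) did not pass, with adjusted p 0.0786. The other, 1425981_a_at, read 10.03, 10.06 and 9.88 against 10.39, 10.32 and 10.41 and rose by 0.39 (SE 0.08) with adjusted p 0.00364. The probe sets of Rbl2 differed in call, and their mean gave 0.30 with adjusted p 0.00568.

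**Figure D2:**
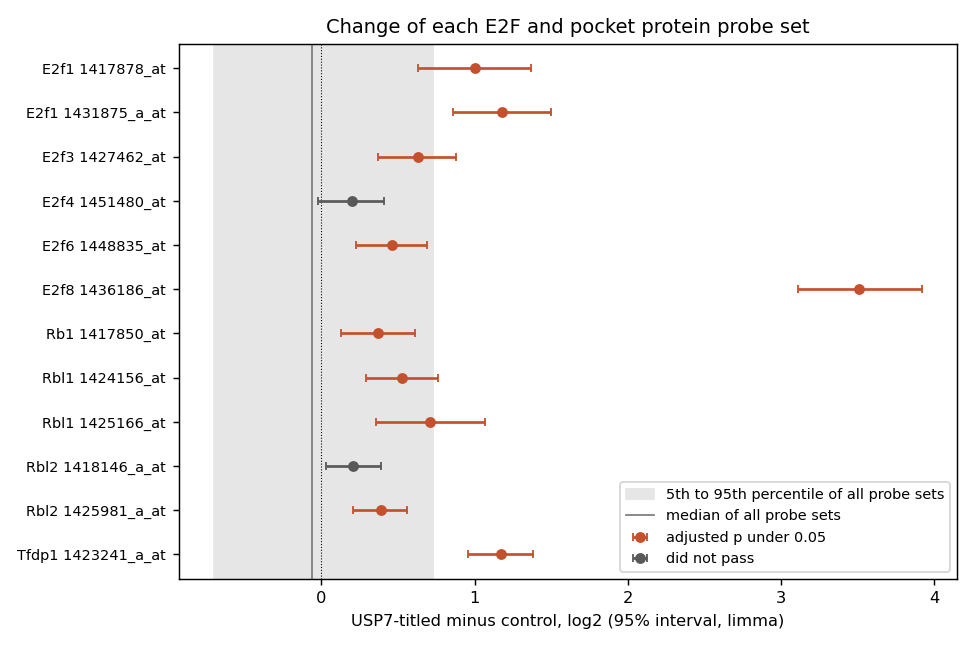
Change (USP7-titled minus control, log2) of each of the 12 probe sets with its 95% confidence interval from limma, over the grey band of the 5th to 95th percentile of all probe sets and their median line. E2f8 lies far to the right at 3.51, and E2f4 is the only member whose interval reaches below 0.

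Whether the activators rose further than the repressors depended on E2f8 being counted. A within-array score was the mean of E2f1 and E2f3 minus the mean of the 6 repressors (E2f4, E2f6, E2f8, Rb1, Rbl1 and Rbl2), each gene taken relative to its control mean. It was 0.03, -0.02 and -0.01 in controls against -0.17, 0.07 and -0.10, so the groups overlapped. Without USP7-titled 2 the difference went from -0.07 to -0.13 and the groups no longer overlapped, and without USP7-titled 1 it was -0.01. Without E2f8 the score was -0.05, 0.00 and 0.05 in controls against 0.38, 0.58 and 0.43. The activators had then risen by 0.46 more than the repressors, and the groups did not overlap. Against E2f4 and E2f6 alone the difference was 0.49, and against the 3 pocket proteins it was 0.44. The version without E2f8 was chosen after the values were seen, and no p is given for a score over genes chosen together.

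By pairs, 12 activator and repressor pairs were compared within arrays, again relative to control means. In 6 the activator had risen further with no overlap, in 4 the groups overlapped, and in 2 the repressor had risen further. E2f1 rose more than E2f4 by 0.80, than Rbl2 by 0.79, than Rb1 by 0.63, than E2f6 by 0.54 and than Rbl1 by 0.47. The last rested largely on USP7-titled 2, at 1.01 where the other two read 0.18 and 0.24 and the highest control 0.12; without that array it was 0.21. For E2f6 the lowest USP7-titled array (0.25) was little above the highest control (0.20). E2f3 rose more than E2f4 by 0.43 without overlap. Its differences from E2f6 (0.17), Rb1 (0.26), Rbl1 (0.10) and Rbl2 (0.42) overlapped with the controls' spread. Both pairs with E2f8 went the other way, by -2.52 for E2f1 and -2.89 for E2f3.

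**Figure D3:**
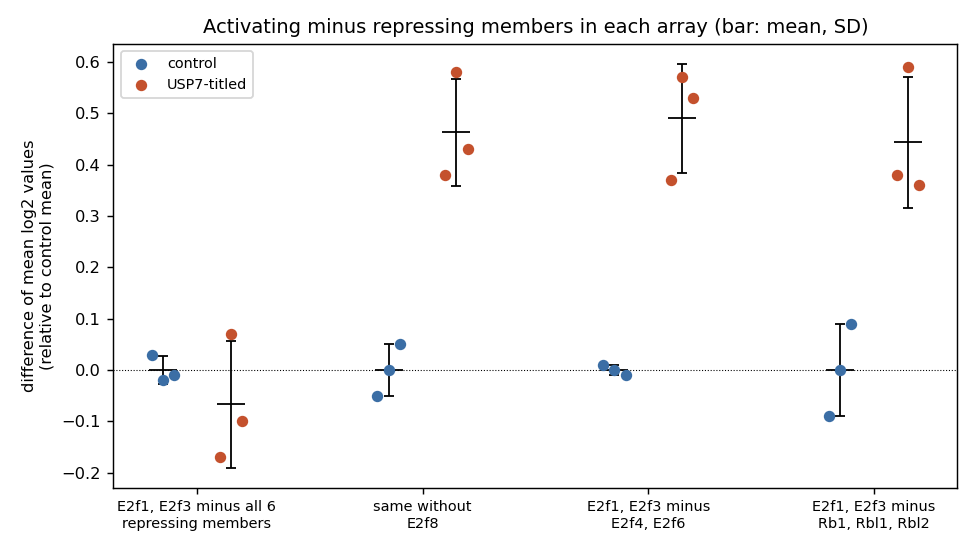
Score per array (log2 units relative to the control mean) for the activators minus the repressors, with all 6 repressors and in the versions that leave some out; points are arrays, bars the mean and SD. With E2f8 the groups overlap near 0, and without it the USP7-titled arrays lie at 0.38 to 0.58.

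Most cyclins and kinases that act on the pocket proteins rose. Of the 10 genes in this list of G1 and S phase, which also holds the phosphatase Cdc25a, 8 rose, 1 fell and 1 did not pass. Among all genes 16.9% rose and 15.6% fell. Cyclin A2 (Ccna2), which drives S phase, rose by 3.29 (SE 0.11, adjusted p 1.13e-08), from 8.28, 8.0 and 8.28 to 11.57, 11.55 and 11.31. Cyclin E1 (Ccne1) rose by 1.56 (SE 0.14, adjusted p 1.22e-05) and cyclin E2 (Ccne2) by 0.82 (adjusted p 0.00114). Among the D cyclins, which start the phosphorylation of Rb1, Ccnd3 rose by 0.65 (adjusted p 4.66e-05), Ccnd2 fell by 0.25 (adjusted p 0.00997), and Ccnd1 differed by -0.31 without passing (adjusted p 0.156). The kinases Cdk2, Cdk6 and Cdk4 rose by 0.65, 0.63 and 0.26, and the phosphatase Cdc25a by 0.71. The fall of Ccnd2 did not pass after spike-in scaling (-0.09, adjusted p 0.309) or with eBayes without a trend (adjusted p 0.0829). On 2 dimmer probe sets Ccnd2 missed the threshold, and 1 probe set of Ccnd1 had the opposite sign (0.20). Cdk4 lost its call without control 1 (adjusted p 0.109), control 3 (0.0772), USP7-titled 1 (0.0567) or USP7-titled 2 (0.086), and also under quantile normalization (0.0705) and eBayes without a trend (0.0766), and 1 of its dimmer probe sets missed it (adjusted p 0.0548).

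Of 7 CDK inhibitors, which keep pocket proteins unphosphorylated, 3 rose and 1 fell, where 16.9% of all genes rose and 15.6% fell. Cdkn1a (p21), a p53 target, rose by 4.62 (SE 0.11, adjusted p 2.07e-09), from 7.0, 7.23 and 7.43 to 11.84, 11.86 and 11.84, and its other probe set gave 4.83. Cdkn2c (p18) rose by 1.55 (adjusted p 2.59e-06) and Cdkn2d (p19) by 0.59 (adjusted p 0.000798). Cdkn1b (p27), an inhibitor of resting cells, fell by 0.38 (SE 0.08, adjusted p 0.00298). Cdkn1c, Cdkn2a and Cdkn2b differed by 0.26, 0.36 and 0.49 and did not pass. After spike-in scaling Cdkn1b read -0.22 (adjusted p 0.086). Without USP7-titled 2, Cdkn2a passed at 0.59 (adjusted p 0.0168) and Cdkn2b at 0.63 (adjusted p 0.0201). Cdkn2b, at adjusted p 0.0515 in the main fit, passed in 7 of 15 alternatives. It passed without control 2 (0.61, adjusted p 0.0372), under quantile normalization (0.57, adjusted p 0.0235) and after spike-in scaling (0.65, adjusted p 0.00987). The others were 1 probe set per gene (adjusted p 0.0444), probe sets averaged (0.0406) and robust eBayes (0.0485).

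Of 5 measured genes for the turnover of E2Fs and pocket proteins, 4 rose (16.9% of all genes) and 1 did not pass. Cdc20, the activator of the anaphase-promoting complex, rose by 2.88 (adjusted p 3.14e-08). Cyclin F (Ccnf) rose by 2.17 and Cks1b, a partner of the Skp2 ubiquitin ligase, by 2.07 (adjusted p 1.12e-06 and 3.81e-08). The remaining E2F family member with a probe set, E2f5, a partner of p130, was dim and fell by 0.50 (SE 0.14, adjusted p 0.0159); its other probe set fell by 0.60. The E2f5 call was lost after spike-in scaling (-0.34, adjusted p 0.0962) and without control 2 (-0.43, adjusted p 0.0759). E2f2, E2f7 and Tfdp2 are not analysed here.

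**Figure D4:**
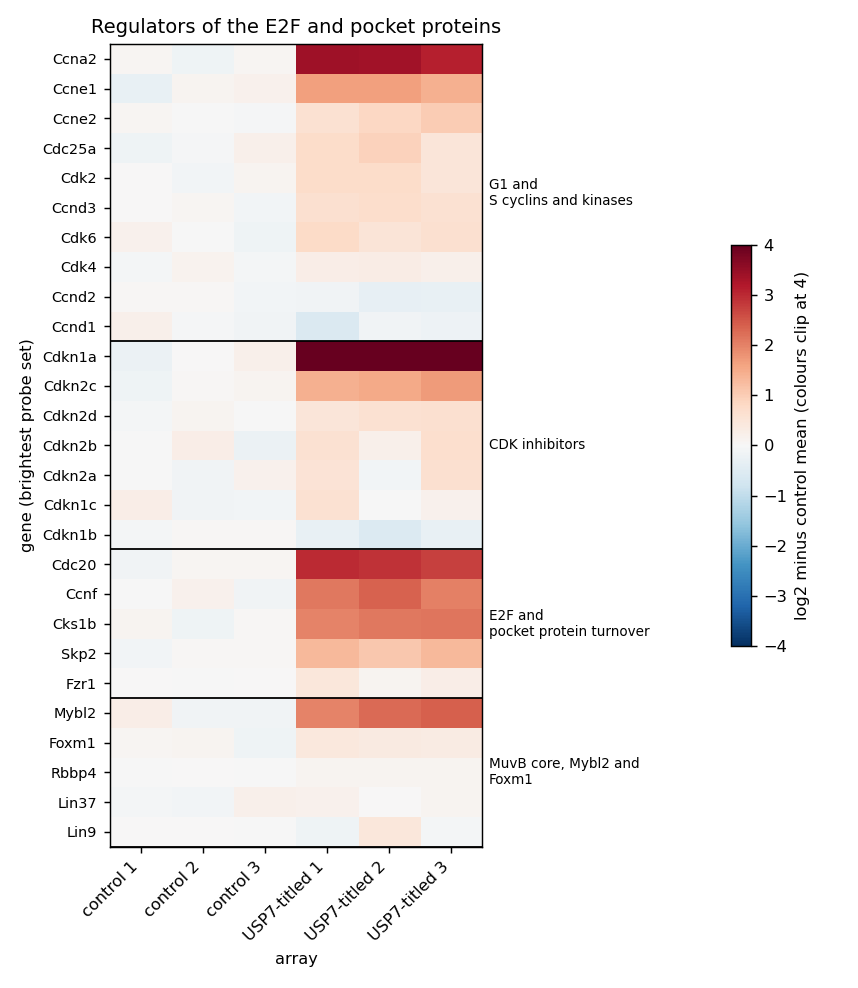
Change of each array from the control mean (log2, colours limited at 4) for the cyclins and kinases, CDK inhibitors, turnover genes and MuvB group by brightest probe set (rows), with the 6 arrays in columns. Cdkn1a (4.62) and Ccna2 (3.29) are darkest in the USP7-titled columns, and Cdkn1b and Ccnd2 are paler blue.

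Of the 5 measured MuvB, Mybl2 and Foxm1 genes, 3 rose (16.9% of all genes) and 2 did not pass. Mybl2, the E2F target that joins MuvB to activate mitotic genes, rose by 2.21 (SE 0.16, adjusted p 2.67e-06). Rbbp4 rose by 0.10 (adjusted p 0.029), and its dimmer probe sets by 0.36 and 0.66. Foxm1, another activator of mitotic genes, rose by 0.38 (adjusted p 0.0237) on its brightest probe set, by 1.81 on another (adjusted p 2.49e-06), and by values that did not pass on the other two (0.22 and 0.08). Lin37 and Lin9 read 0.10 and 0.07 and did not pass. Foxm1 lost its call without control 3 (adjusted p 0.0841), USP7-titled 1 (0.0618) or USP7-titled 2 (0.0524). The Rbbp4 call was lost without any array except control 2 (adjusted p 0.0517 to 0.0916), under quantile normalization (0.0545) and with eBayes without a trend (0.353), and Lin9 read -0.12 without USP7-titled 2.

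The listed G1/S targets of E2F and G2/M targets of DREAM rose almost throughout. Of 31 measured E2F targets of G1/S, 29 rose and 2 did not pass, against 16.9% of all genes, with a median change of 1.27 against -0.05 over all genes. Cdc6, which loads the replicative helicase, rose by 2.66, Rrm2, which makes deoxyribonucleotides, by 2.56 and Uhrf1, which maintains DNA methylation, by 2.32 (adjusted p 5.74e-07, 8.76e-08 and 1.44e-07). Of 24 measured DREAM targets of G2/M, 24 rose, with a median change of 2.82. The spindle checkpoint kinase Bub1 rose by 3.71, the chromosomal passenger protein Birc5 by 3.70 and the ubiquitin-conjugating enzyme Ube2c by 3.46 (adjusted p 7.93e-07, 1.39e-08 and 1.21e-08). E2f8, at 3.51, lay within the wide range of this list, 1.10 to 3.71, and so did Tfdp1 (1.17) and the dimmer probe set of E2f1 (1.18). The lists were textbook lists chosen with results of these data known, so their counts are descriptions.

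The promoter windows of these lists held different elements. Of 29 G1/S targets with a RefSeq window, 41.4% held the E2F element and 17.2% the CHR, and of 22 G2/M targets, 4.55% and 77.3%. The short E2F element was in 58.6% of the G1/S and 9.09% of the G2/M windows. Among the members, the window of E2f8, inside its annotated gene, held the short element at -111 and a CHR at -20, and that of E2f3 held a full E2F element and a CHR.

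**Figure D5:**
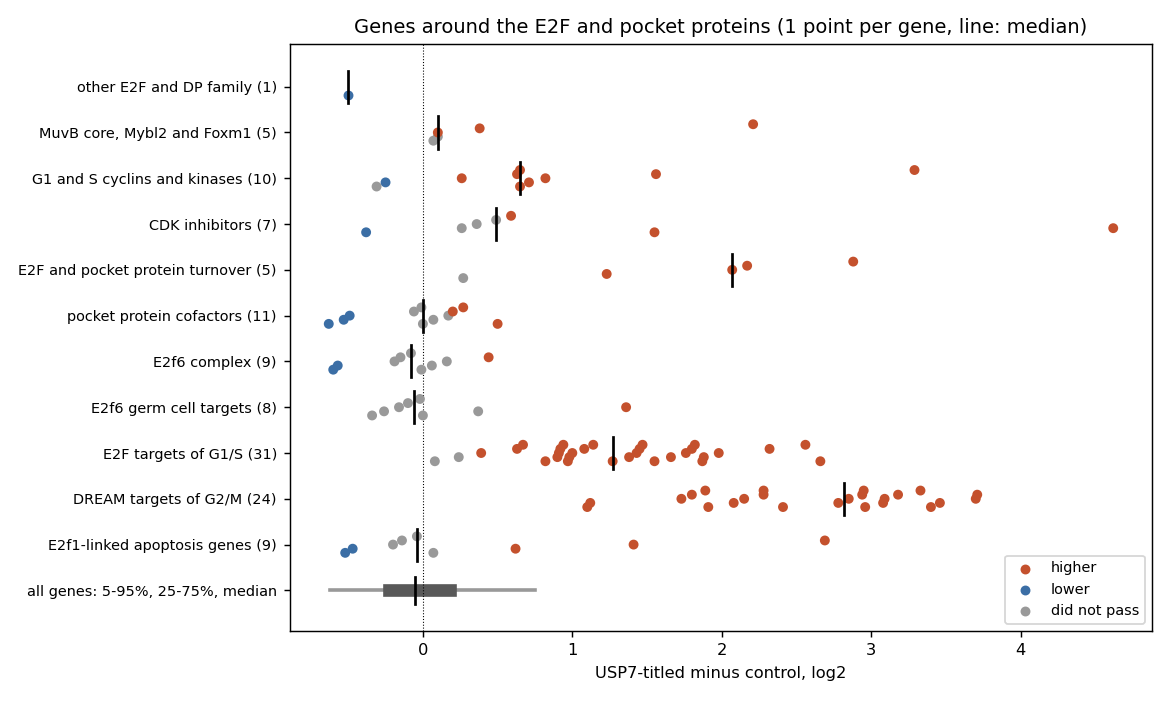
Change (log2, USP7-titled minus control) of each measured gene by list, with the list median, ordered by role; all genes have a median of -0.05. The G2/M and G1/S target lists and the turnover list lie to the right, and the E2f6 complex, E2f6 germ cell target and apoptosis lists are centred near 0.

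Most partners and germ cell targets of E2f6 did not pass. Of 9 measured genes of the E2f6 complex, 1 rose and 2 fell, near the shares over all genes (16.9% rose, 15.6% fell). Mga, its DNA-binding scaffold, fell by 0.60 (adjusted p 0.00229), Pcgf6, a Polycomb ring finger protein, by 0.57 (adjusted p 0.00277), and Yaf2 rose by 0.44 (adjusted p 0.0187). Pcgf6 missed the threshold on 1 of its dimmer probe sets (-0.22). Yaf2 lost its call without control 2 (0.31, adjusted p 0.0701), USP7-titled 1 (adjusted p 0.0503) or USP7-titled 2 (adjusted p 0.0637). Of 8 measured germ cell genes that E2f6 is known to keep silent in somatic cells, 1 rose (16.9% of all genes). The other 7 did not pass. Stag3, a meiotic cohesin subunit, rose by 1.36 (SE 0.19, adjusted p 0.000286). It was dim, with means of 4.81 in controls (percentile 11.1 of the array) and 6.16 in USP7-titled arrays. The filter against the dimmest 40% left it out. The median change of the 8 germ cell genes was -0.06, and 0.10 after spike-in scaling, which is the shift of that scaling. In RefSeq windows the short E2F element was found in 72.7% of 11 such genes.

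Of 11 measured cofactors of the pocket proteins, 3 rose and 3 fell, and the other 5 missed the threshold, where 16.9% of all genes rose and 15.6% fell. Their median change was 0.00, and 0.16 after spike-in scaling. Sin3a, the scaffold of a histone deacetylase complex, fell by 0.63 (adjusted p 0.000273), the remodeller Smarca2 by 0.53 (adjusted p 0.00203) and Arid4b, an Rb-binding protein, by 0.49 (adjusted p 0.000403). Rbbp7 rose by 0.50 (adjusted p 5.2e-05), Sin3b by 0.27 (adjusted p 0.00235) and the deacetylase Hdac1 by 0.20 (adjusted p 0.023). A dimmer probe set of Sin3b read -0.12, and 1 dimmer probe set each of Sin3a (-0.27) and Arid4b (-0.29) did not pass, while their others did. Hdac1 lost its call without control 2 (adjusted p 0.0648), control 3 (0.0671) or USP7-titled 3 (0.0909), under quantile normalization (0.13, adjusted p 0.134) and with eBayes without a trend (adjusted p 0.13).

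Of 9 measured apoptosis genes linked to E2f1, 3 rose and 2 fell, and the other 4 missed the threshold, where 16.9% of all genes rose and 15.6% fell. The median change was -0.04 (0.12 after spike-in scaling). Pmaip1 (Noxa) rose by 2.69, Apaf1, the core of the apoptosome, by 1.41 and Bbc3 (Puma) by 0.62 (adjusted p 3.44e-07, 1.62e-05 and 0.00154). Bcl2l11 (Bim) fell by 0.52 (adjusted p 0.00963) and Casp8 by 0.47 (adjusted p 0.00019). After spike-in scaling Bcl2l11 read -0.36 (adjusted p 0.0995), and 2 of its dimmer probe sets did not pass.

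Some markers of other cell types rose alongside. Over all genes 16.9% rose and 15.6% fell. Of 18 myeloid markers 13 rose and 5 did not pass, and their summed linear level ranged over 3898 to 4491 in controls and over 8833 to 10544 in the USP7-titled group. C1qb rose by 2.86, Csf1r by 1.99, Tyrobp by 1.85 and Lyz2 by 1.65, while Itgam (-0.13), Cd14 (0.10), Fcgr1 (0.25), Cd68 (0.42) and Adgre1 (0.49) did not pass. Of 11 CD8 T and NK markers 4 rose and 1 fell, with a summed level of 4615 to 4837 against 15300 to 16287. Gzmb rose by 3.29, Gzma by 3.21, Nkg7 by 2.76 and Ccl5 by 1.31, and Prf1 fell by 0.45. Eomes (-0.52), Klrk1 (-0.26), Cd8b1 (-0.23), Ncr1 (-0.15), Cd8a (0.02) and Klrd1 (0.19) did not pass. Gzmb, Nkg7 and Ccl5, with USP7-titled means of 12.64, 12.24 and 11.36, carried most of that group's sum. Of 11 B cell markers 5 rose, with 7771 to 8234 against 8452 to 9642. The rises were Cd74, H2-Aa, H2-Eb1, Pou2af1 and Ms4a1. Cd74, H2-Aa and H2-Eb1 were the brightest of these 5, with USP7-titled means of 10.91, 9.87 and 9.41. Pax5 (-0.29), Cd79a (-0.29), Blk (-0.28), Ebf1 (-0.16), Ighm (-0.04) and Cd79b (0.23) did not pass. Of 9 CD4 T and Treg markers 6 fell, with 57256 to 58788 against 45596 to 46187. Without Foxp3 the sum of the other 8 was 49107 to 50454 against 45471 to 46072, so Foxp3 carried most of the difference. Neither of the 2 measured erythroid markers passed. No marker is at 0 on this scale, which has no detection call. Their part in the changes of the E2F genes and their targets was not tested.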

How the data were processed

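Total RNA of 3 control and 3 USP7-titled samples was measured on 1 array each; 100 ng was amplified and labelled with biotin, per the labels' protocols. The authors deposited log2 expression values per probe set; the base was read from the values (2.21 to 14.47), and how probes were summarised and normalized is not stated in the labels. Array medians were 7.91 to 7.96 and no further normalization was applied. Of 22690 probe sets, 64 controls were set aside; 20380 had 1 gene symbol in the platform annotation, 691 several and 1555 none. The test was limma's (limma 3.58.1, R 4.3.3, with a mean-variance trend), run on 22626 probe sets with Benjamini-Hochberg adjustment over all of them and a threshold of 0.05. A gene is given by its brightest probe set, and its other probe sets are named where they differ in sign or call. The median residual SD was 0.141 per probe set, and the number of arrays limits the precision.

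The members, lists and motifs were chosen with earlier results of these data known. All members and all measured genes of the small regulator lists are named; from the others, up to 3 rises and 3 falls with the largest change. On simulated data for this comparison (22626 probe sets, 200 changed), limma recovered 34.3% of changes of 0.5, 98.5% of 1 and 100% of 2 on the log2 scale, with 16 false among 171 calls. Alternatives were scaling, probe set choice, a filter leaving out the dimmest 40%, eBayes settings, array weights, the replicate block and leaving out each array.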

Additional observations from a re-analysis of the deposited data

How the results depend on the processing

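Each member probe set was recomputed under up to 16 alternatives, which gave 186 values; 179 kept their direction and side of the threshold, 4 lost the call, 3 gained it and 0 changed sign. Among named genes outside the members, 705 of 744 values kept both, 30 lost the call, 8 gained it and 1 changed sign, Lin9, which ran from -0.12 (without USP7-titled replicate 2) to 0.19 when each array was left out. E2f4 passed after spike-in scaling (0.36), and Rbl2 1418146_a_at after spike-in scaling (0.37) and with probe sets averaged (0.30). Rb1 ran from 0.32 to 0.45 when each array was left out and lost its call in 4 of the 6 cases. The score of activators minus repressors was 0.46 without E2f8 (0.40 to 0.50 when each array was left out), a version added after seeing the data. Spike-in scaling left 1938 probe sets lower. With 1 probe set per gene 2102 rose and 1976 fell, and with probe sets averaged 2076 rose and 2202 fell, fewer features being tested in both. The replicate number as a block gave 3637 higher and 3858 lower probe sets, and 10 of the 12 member probe sets higher as without it. Deviations of same-numbered arrays correlated at 0.07, -0.05 and 0.09, so no shared shift of same-numbered arrays was seen. This does not show whether the samples were prepared in pairs. In the simulation, where 200 probe sets were changed, 34.3% of changes of 0.5 on the log2 scale were recovered. Far more probe sets were called in the data, which alters the p-value needed to pass, so that share does not carry over. Some smaller changes passed here, such as Rb1 (0.37), and others did not, such as E2f4 (0.20). A missed call is no sign of an equal level.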

Other observations

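For 4 members the genes with the most similar profile over the 6 arrays were found by Euclidean distance of log2 values, after each gene's control mean was subtracted, among the brightest probe sets of all other genes. For E2f8 these were Ube2c (distance 0.26, change 3.46), Lgals3 (0.55, change 3.50) and Cdca3 (0.63, change 3.40). For E2f1 they were Syne2 (0.25, change 0.95), Slc11a1 (0.30, change 0.94) and Nlrx1 (0.32, change 0.87). Rbl1 was nearest to Sf3b4 (0.09, change 0.53), Sesn2 (0.10, change 0.55) and 1700037H04Rik (0.10, change 0.51). Rb1 was nearest to Sla (0.08, change 0.37), Dcaf12 (0.09, change 0.35) and Nhp2 (0.10, change 0.36). The nearest genes of E2f8 include mitotic genes, and those of E2f1 and Rb1 do not. These distances rest on 6 arrays in 2 groups, so mainly the size of the group difference sets them.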
